A study of Mus musculus with 12 samples.

Results

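The livers of wildtype mice 24 h after removal of 2/3 of the organ were compared with the livers of unoperated wildtype mice, across all 17097 genes that the arrays name. The comparison rests on the 4 arrays labelled as wildtype controls at 24 h and at 0 h, out of 12 in the series. All were adult C57BL/6 animals, and the 0 h mice were matched to the operated ones for age. Each array carried RNA pooled from 3 animals, and each time had 2 such pools, so n is 2 pools throughout. No group had a sham operation, so loss of liver, surgery itself and the hour of harvest cannot be told apart. Neither the sex of the mice nor the time of day at harvest is stated in the labels. The other 8 arrays hold wildtype liver at 36 h and the liver of Socs2-null mice, kept on the same C57BL/6 background, at 24, 36 and 0 h. They entered the estimate of the spread, and the Socs2-null arrays at 24 and 0 h serve as another measurement of the same interval.

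The adult liver is mostly made of hepatocytes that rarely divide. After partial hepatectomy these cells leave quiescence while they go on supplying the body with plasma proteins, glucose and bile. Cytokines such as interleukin 6 and growth factors such as HGF and the ligands of the EGF receptor are the best known signals of that entry into the cell cycle, and DNA synthesis in mouse hepatocytes generally peaks after the first day. Whole liver was measured, so fewer cells of a type and less RNA per cell cannot be told apart.

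Levels are given as the authors' processed array intensities for the pools, and changes as the 24 h minus 0 h difference in log2(intensity + 16) with its standard error, from a limma model of all 12 arrays. A gene was called, and is said to have risen or fallen, when its Benjamini-Hochberg adjusted p was under 0.05. The p-values measure the spread between pools of animals. A probe set was taken as under background at a time when it lay at or below the brightest of 17 tag controls on each array of that time. The brightest tag controls read 40.5 and 41.8 at 24 h, against 41.7 and 42.8 at 0 h. Folds against a level under background are given as at least that large. The added 16 makes the log2 difference of a dim gene smaller than that of its intensities.

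Median intensities over all probe sets were 47.3 and 45.7 at 24 h, against 51.7 and 52.3 at 0 h. Pearson's r across probe sets was 0.9897 between the 24 h pools and 0.9953 between the 0 h pools, against 0.9606 to 0.9662 between pools of different times. The SD of a pool about its group mean was 0.164 at 24 h and 0.104 at 0 h on the log2 scale. Spiked hybridization controls averaged 9.90 and 9.63 at 24 h, against 9.98 and 9.95 at 0 h, on the log2 scale, and the ratio of 3′ to 5′ beta-actin signal was 1.27 and 1.38, against 1.42 and 1.45. The tissue label was checked against hepatocyte markers. Albumin read 17171 and 16454 at 24 h, against 18704 and 18333 at 0 h, apolipoprotein A1 read 16289 and 15131 at 24 h, against 18786 and 17544 at 0 h, and Cyp2e1 read 10635 and 10478 at 24 h, against 13459 and 13423 at 0 h. Summed over 7 hepatocyte markers, intensity was 88027 and 87169 at 24 h and 100628 and 99316 at 0 h.

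Within a day of hepatectomy 4453 of the 17097 genes had changed. Of all genes tested, 1767 rose (10.3%) and 2686 fell (15.7%). Among these 349 rose and 340 fell by over 2-fold, and 48 rose and 32 fell by over 4-fold. The median log2 difference of all genes was -0.080, and the median of each gene list is to be read against it. Counts of rises and falls in a list are likewise to be read against the 10.3% and 15.7% of all genes. The split of the calls depended on the scale: with each array centred on its own median 2428 genes rose and 1608 fell, so that 60.2% of calls were rises in place of 39.7%. In every called gene both 24 h pools lay on 1 side of both 0 h pools, as they did in 70.7% of all genes. Where pools are said below to lie apart, this is therefore no further support for a call. Fits without wildtype 24 h replicate 1, 24 h replicate 2, 0 h replicate 1 and 0 h replicate 2 gave 885, 915, 604 and 540 rises and 1214, 1446, 918 and 834 falls, and counts from fits that left out 1 array each are given in this order throughout. Of the called genes 300 lay under background on all 4 arrays and are marked as dim where named.

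**Figure D1:**
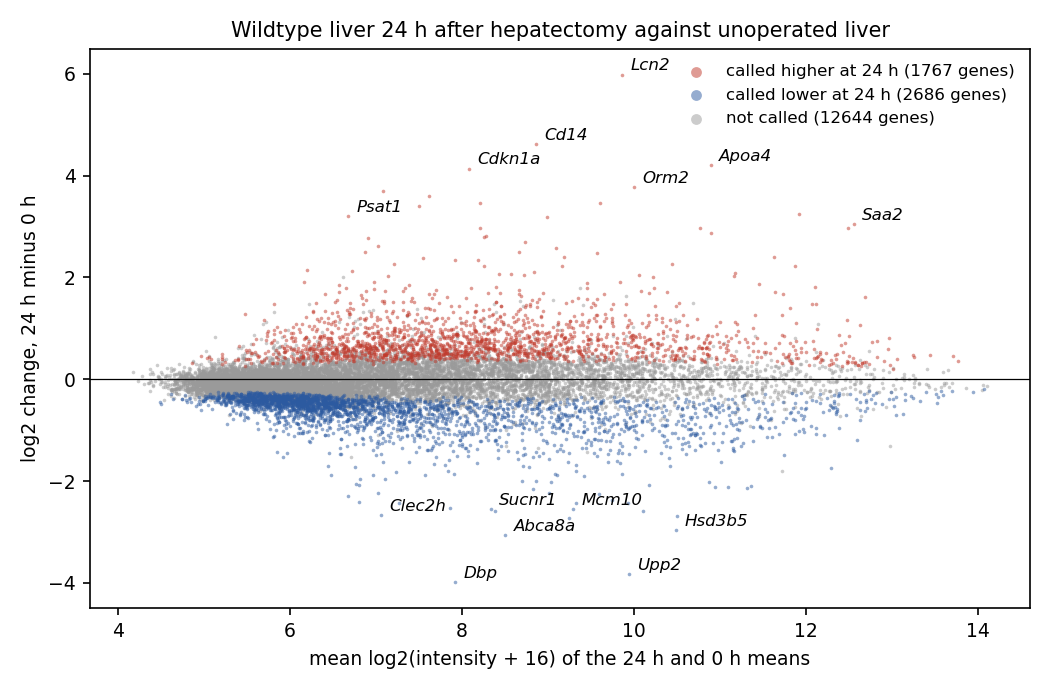
Log2 difference between 24 h and 0 h wildtype liver (y axis, 24 h minus 0 h) against the mean log2 intensity of the 4 arrays (x axis) for each of 17097 genes. Called rises (1767) and falls (2686) are coloured, uncalled genes are grey, and Lcn2 at 5.98 and Dbp at -3.99 mark the upper and lower ends.

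Lcn2 had the largest rise of all genes. Lcn2, an iron-scavenging protein of innate defence, read 7907 and 6793 at 24 h, against 121 and 82.8 at 0 h, a log2 difference of 5.98 ± 0.26 (adjusted p = 1.54e-06). Cd14, a co-receptor for bacterial lipopolysaccharide, read 2353 and 2243 at 24 h, against 78.9 and 77.2 at 0 h (4.62 ± 0.70, adjusted p = 0.00204). Apoa4, an apolipoprotein of triglyceride-rich particles, read 7941 and 8339 at 24 h, against 467 and 389.7 at 0 h (4.20 ± 0.23, adjusted p = 5.35e-06). For these 3 genes the lower 24 h pool stood many times above the higher 0 h pool. Tnfrsf12a, the receptor for the cytokine TWEAK, read 2355 and 2771 at 24 h, against 229 and 209 at 0 h (3.45 ± 0.50). Ly6d, a surface protein of the Ly6 family, read 694 and 634 at 24 h, against 42.5 and 38.5 at 0 h (3.59 ± 0.18), and Mfsd2a, a transporter of lysophospholipids, read 2089.6 and 1031 at 24 h, against 172 and 124 at 0 h (3.19 ± 0.66, adjusted p = 0.00783). The 24 h pools of Mfsd2a were far apart, and both lay above both 0 h pools. Sult1e1, which sulfates oestrogens, was under background at 0 h (24.8 and 18.1) and read 539.7 and 405 at 24 h, at least 8.3-fold higher.

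Dbp had the largest fall of all genes. Dbp, a transcription factor driven directly by the clock, read 41.7 and 47.2 at 24 h, against 833 and 1068 at 0 h (-3.99 ± 0.24, adjusted p = 6.22e-06). Upp2, a liver uridine phosphorylase, read 189 and 308 at 24 h, against 3645 and 3653 at 0 h (-3.83 ± 0.58), and all 3 of its probe sets were lower. The hydroxysteroid dehydrogenase Hsd3b5 read 424 and 575 at 24 h, against 4146 and 3807 at 0 h (-2.97 ± 0.51), and its relatives Hsd3b2 (-2.58) and Hsd3b6 (-2.43) fell with it, although these near-identical genes may share probe signal. Both 24 h pools were far below both 0 h pools for each of them. Abca8a, an ABC transporter, read 103 and 116 at 24 h, against 981 and 1082 at 0 h (-3.06 ± 0.25). Sucnr1, the receptor for succinate, read 103 and 132 at 24 h, against 781 and 741 at 0 h (-2.55 ± 0.19). Keg1, a glycine acyltransferase-like gene of liver and kidney, read 537 and 571 at 24 h, against 3817 and 3514 at 0 h (-2.69 ± 0.25). Clec2h, a C-type lectin, was under background at 24 h (33.2 and 40.1) and read 354 and 284 at 0 h, at least 5.83-fold lower at 24 h, and all 3 of its probe sets were lower. The rest of the 15 largest falls were 1810008I18Rik (-2.72), Dnase2a (-2.59), Mcm10 (-2.55), N4bp2l1 (-2.52), Tlcd2 (-2.43) and Nrep (-2.43).

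Acute-phase proteins, which the liver releases into plasma during inflammation, had mostly rises. Of 28 measured genes 17 rose, 1 fell and 10 were not called, and the median log2 difference was 0.70 against -0.080 for all genes. Among the serum amyloids, Saa2 read 17249 and 16282 at 24 h, against 2917 and 1396 at 0 h (3.04 ± 0.30) and Saa1 read 11839 and 11322 at 24 h, against 1685 and 870.3 at 0 h (3.24 ± 0.31), although these paralogs are close in sequence. The lowest 24 h value was above the highest 0 h value several times over for both. Orm2, an orosomucoid that binds drugs in plasma, read 3595 and 3880.2 at 24 h, against 314 and 215 at 0 h (3.77 ± 0.29), and its paralog Orm3 was under background at 0 h and at least 10.1-fold higher at 24 h. Mt1, a metallothionein that binds zinc, read 15672 and 15852 at 24 h, against 2727 and 1448 at 0 h (2.98 ± 0.33). Serpina3n, a protease inhibitor, rose by 2.40 and Apcs, the serum amyloid P gene, by 2.23. The fibrinogen chains moved less: Fga (0.48), Fgb (0.45) and Fgg (0.36) all rose, with Fgb at 16054 and 15368 at 24 h, against 11811 and 11238 at 0 h. Haptoglobin, which binds free haemoglobin, was 0.48 higher. Il1rn, the interleukin 1 receptor antagonist, was the member that fell (-0.85), with 1 dim probe set at 0.14. Hepcidin (Hamp, 0.56), ceruloplasmin (Cp, 0.052), haemopexin (Hpx, 0.18) and C-reactive protein (Crp, 0.16), which is not a major acute-phase protein in mice, were not called. Its rises numbered 16, 18, 16 and 16 in the 4 fits that left out 1 array each.

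Genes for proteins that the resting hepatocyte secretes had more falls than rises. Of 33 such genes 16 fell, 2 rose and 15 were not called (median -0.25). The coagulation factors F11 (-1.21), F5 (-1.06), F7 (-0.99) and F2 (-0.25) fell. Complement C8b (-0.90), C8a (-0.46) and C9 (-0.39), parts of the pore-forming attack complex, fell as well. Apob, the structural protein of very low density lipoprotein, read 620.4 and 357 at 24 h, against 886 and 937 at 0 h (-0.93 ± 0.24), with no overlap. Serpina6, which carries corticosteroids in blood, read 929.7 and 912 at 24 h, against 2249 and 2574 at 0 h (-1.37 ± 0.42). Apoa4 and Apoc2 (0.85), an activator of lipoprotein lipase, were the 2 that rose. Albumin (-0.14 ± 0.065, adjusted p = 0.133) was not called. The falls numbered 5, 4, 3 and 3 in the fits that left out 1 array each.

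**Figure D2:**
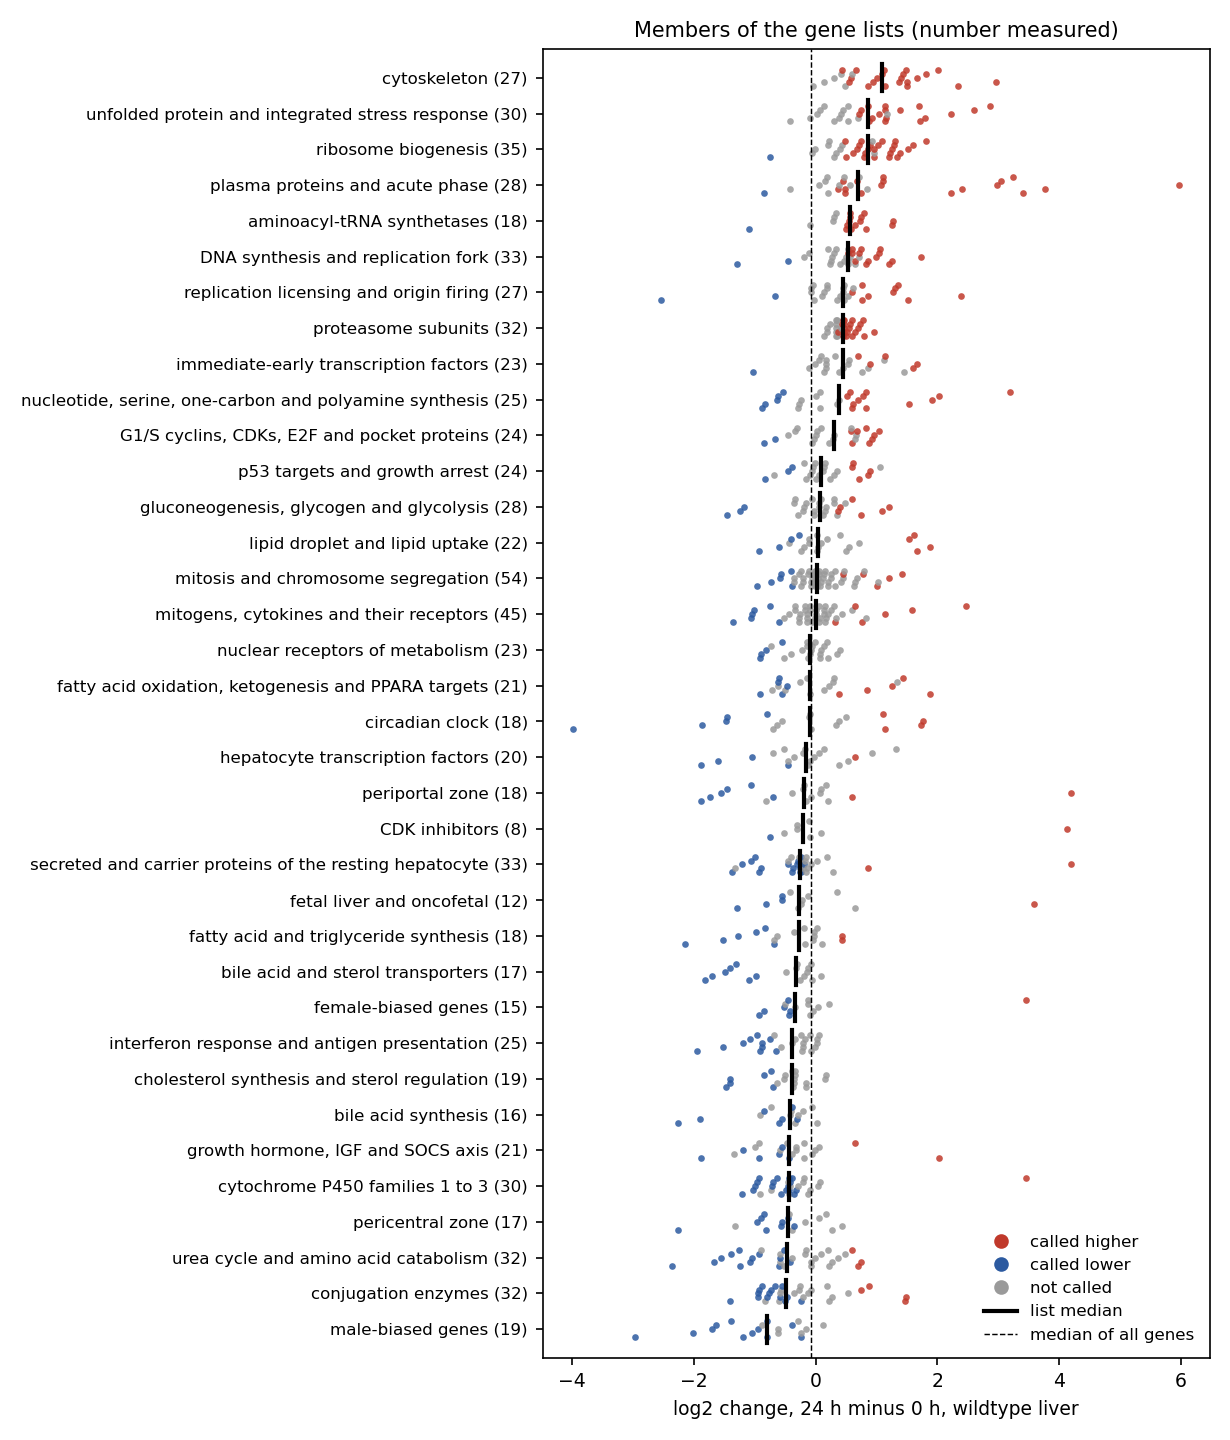
Log2 differences (x axis, 24 h minus 0 h) of the members of the gene lists in wildtype liver, 1 row per list, with a point per gene and a bar at the list's median. The cytoskeleton (1.09), stress response (0.87) and ribosome biogenesis (0.86) lists have the highest medians of the pathway lists, and male-biased genes (-0.80) the lowest.

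Rises outnumbered falls among genes that load and start the replicative helicase. Of 27 measured genes of origin licensing and firing 9 rose, 2 fell and 16 were not called, with a median of 0.45. Mcm6 read 406 and 417 at 24 h, against 60.9 and 70.5 at 0 h (2.39 ± 0.35, adjusted p = 0.00175), Mcm5 read 149.6 and 144 at 24 h, against 43.4 and 51.7 at 0 h (1.36 ± 0.32) and Mcm4 read 141 and 149 at 24 h, against 53.7 and 47.3 at 0 h (1.28 ± 0.32). These are subunits of the MCM helicase ring, and in each both 24 h pools were above both 0 h pools. Mcm2 was under background at 0 h and at least 2.67-fold higher, and Mcm7 (0.76) and Mcm3 (0.76) rose too, so that the 6 ring subunits were all called. Cdt1, which loads the ring, read 196 and 231 at 24 h, against 78.1 and 76 at 0 h (1.30 ± 0.26). The GINS subunit Gins2 (0.85) and the origin recognition subunit Orc6 (0.60) also rose. The exceptions were Ticrr (-0.66), which helps fire origins, and Mcm10, which works at origins but is no part of the ring. Mcm10 read 211 and 278 at 24 h, against 1531 and 1466 at 0 h (-2.55 ± 0.27), and its other 2 probe sets, with lower signal, stood at -0.74 (adjusted p = 0.00109 among all probe sets) and -0.22 (adjusted p = 0.239). Cdc6 stayed under background at both times. Rises in the list numbered 3, 4, 2 and 4 in the fits that left out 1 array each.

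The promoters of Mcm6 and Mcm5 are given because both genes rose and both hold a short word known from E2F binding sites, TTTGGCGC. The windows run from 250 bases before to 50 after the annotated start in RefSeq (GRCm38.p6), at chr1:128359656-128359955 on the minus strand for Mcm6 and chr8:75109259-75109558 on the plus strand for Mcm5. Both are printed 5′ to 3′ along the gene's strand, with matches on either strand in capitals.
Mcm6: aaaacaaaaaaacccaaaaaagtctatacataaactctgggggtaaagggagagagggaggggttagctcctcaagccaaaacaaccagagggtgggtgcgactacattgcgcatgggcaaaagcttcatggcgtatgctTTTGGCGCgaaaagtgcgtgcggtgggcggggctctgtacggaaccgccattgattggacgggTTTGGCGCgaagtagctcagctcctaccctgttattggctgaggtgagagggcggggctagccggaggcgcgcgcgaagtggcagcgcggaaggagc
Mcm5: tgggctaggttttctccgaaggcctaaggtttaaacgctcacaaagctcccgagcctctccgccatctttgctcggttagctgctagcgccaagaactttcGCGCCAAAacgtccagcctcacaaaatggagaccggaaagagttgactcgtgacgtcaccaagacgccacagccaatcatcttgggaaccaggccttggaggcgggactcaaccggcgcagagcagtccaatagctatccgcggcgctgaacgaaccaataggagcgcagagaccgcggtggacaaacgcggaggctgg
The matches begin 110 and 47 bases before the start of Mcm6 and 149 bases before that of Mcm5, where the word lies on the opposite strand. TTTGGCGC was found in 5 of 21 licensing genes with a promoter in the table (Mcm6, Cdt1, Mcm5, Mcm3 and Mcm8), 4 of them among the 7 that rose and had a promoter there. It was found in 3 of 30 genes of DNA synthesis and in 0.585% of all 27025 genes with a promoter. A related word, TTTCCCGC, was in 4 of the 21, 4 of the 30 and 1.24% of all genes. Among the licensing genes it was in 2 of the 7 that rose and 2 of the 12 not called. A match is a description of these letters and does not show binding.

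At the replication fork rises outnumbered falls as well. Of 33 genes of DNA synthesis 14 rose, 2 fell and 17 were not called (median 0.54). Prim1, the primase that starts new strands, read 218 and 253 at 24 h, against 62.7 and 56.8 at 0 h (1.73 ± 0.24). Pcna, the sliding clamp, read 1432 and 1350.3 at 24 h, against 677 and 644 at 0 h (1.06 ± 0.17), and Rpa2, which coats single strands, read 182 and 163 at 24 h, against 70.8 and 56.4 at 0 h (1.25 ± 0.20). The 24 h and 0 h pools did not overlap in any of these. Rrm1, the large subunit of ribonucleotide reductase (1.04), the flap nuclease Fen1 (1.00) and the ligase Lig1, at least 2.14-fold higher, rose as well. Clamp loaders Rfc4 (0.87), Rfc2 (0.75) and Rfc3 (0.71) and the polymerase subunits Pold2 (0.83), Pold3 (0.60) and Pole2, at least 1.36-fold higher on its brightest probe set, were among the rest. Over all alternatives the log2 difference of Pole2 went down to 0.10. Tk1, the thymidine kinase of the salvage pathway, fell on its only probe set, at 115 and 173 at 24 h, against 344 and 402 at 0 h (-1.30 ± 0.27). Rrm2, the reductase's small subunit (0.54 ± 0.21, adjusted p = 0.078), and thymidylate synthase, Tyms (0.46 ± 0.17, adjusted p = 0.0664), were not called, and another probe set of Tyms was lower past the threshold (-0.62). Limma on the 4 compared arrays alone gave an adjusted p of 0.00733 for Rrm2 and 0.0142 for Tyms. Fits that left out 1 array each gave 8, 8, 6 and 5 rises.

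Genes of mitosis were called no more often than all genes. Of 54 genes of mitosis and chromosome segregation 5 rose and 6 fell, and 24 lay under background at both times (median 0.025). Cdk1, the mitotic kinase, read 154 and 120.0 at 24 h, against 56.9 and 61 at 0 h (1.02 ± 0.36, adjusted p = 0.0639) and did not pass. Its adjusted p was 0.00114 with limma on the 4 compared arrays alone. Its pools did not overlap, as in 70.7% of all genes. Ccna2, cyclin A2, read 40.5 and 47.4 at 24 h, against 38.2 and 38.9 at 0 h (0.13 ± 0.20), Mki67 read 57.9 and 43.5 at 24 h, against 45.7 and 47.5 at 0 h (0.083 ± 0.19), and Ccnb2 was under background throughout. The Mki67 values of 24 h lay on both sides of those of 0 h. Cks1b, a small subunit of CDK complexes, rose (1.41 ± 0.42), as did the spindle checkpoint gene Mad2l1 (1.01) and the condensin subunit Smc2 (1.21). Over all alternatives Smc2 went down to 0.42. Pttg1, securin, fell on each of its 3 probe sets and read 845 and 849 at 24 h, against 1675 and 1661 at 0 h on the brightest (-0.96 ± 0.12), and the centromere genes Cenpf (-0.73) and Cenpa (-0.58, with its other, dim probe set at 0.067) fell. At 36 h the list's median was 0.19 above 0 h, with Mki67 at 52.4 and 74.6 and Cdk1 at 86.7 and 152. Without 1 array each the counts were 0, 1, 0 and 0 rises and 4, 4, 3 and 2 falls.

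Among the cyclins, CDKs and E2F-pocket proteins that govern entry into S phase, 8 of 24 rose and 2 fell (median 0.30). Cdk4, the partner of D cyclins, read 644 and 666 at 24 h, against 327 and 349 at 0 h (0.92 ± 0.22), Ccnd3, cyclin D3, read 364 and 398 at 24 h, against 215 and 250.0 at 0 h (0.68 ± 0.15) and Tfdp1, the E2F partner, read 444 and 422 at 24 h, against 220.2 and 234 at 0 h (0.88 ± 0.14). Each had 24 h pools above both 0 h pools. Over all alternatives Ccnd3 went down to 0.24, and its other, dimmer probe set stood at -0.20. Skp2, which targets p27 for destruction, rose by 0.58, with 1 dim probe set at -0.27, and E2f8, a repressor E2F, by 0.83. Rbl2, the pocket protein of quiescent cells, read 114 and 117 at 24 h, against 207 and 233 at 0 h and fell (-0.84 ± 0.19), while its relative Rbl1, of cycling cells, was at least 1.34-fold higher. Ccnd1, cyclin D1, the best known marker of hepatocytes leaving quiescence, read 524 and 558 at 24 h, against 322 and 356 at 0 h (0.65 ± 0.46, adjusted p = 0.318) and was not called. The 24 h pools lay above the 0 h pools, and the 36 h pools, at 548 and 2185, were far apart. Cdk7 rose on its brightest probe set (1.04), but another of its 5 probe sets was lower past the threshold. The list's rises numbered 3, 3, 2 and 2 without 1 array each.

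The CDK inhibitor p21, Cdkn1a, was among the 15 largest rises. It read 1643 and 702 at 24 h, against 49.7 and 42.7 at 0 h (4.14 ± 0.34, adjusted p = 0.00011), and its other probe set was higher as well. Replicate 1 was the brighter 24 h pool, and both stood far above 0 h. Cdkn1c, p57, fell (-0.75), and of the 6 other measured inhibitors p27, Cdkn1b, stood at -0.31 ± 0.15 (adjusted p = 0.14). Cdkn1a is a target of p53. Of 24 p53 targets and growth arrest genes 5 rose and 3 fell (median 0.083), where 10.3% of all genes rose and 15.7% fell. Mdm2, the ligase that degrades p53, read 303 and 356 at 24 h, against 213 and 211 at 0 h (0.59 ± 0.12), the nuclease Aen rose by 0.89, and Zmat3 (0.71), Gadd45b (0.61) and Sesn2 (0.86) completed the rises. Bbc3, the death gene PUMA, fell (-0.45), and Ccng1, cyclin G1, was not called (0.36 ± 0.18). Rises of p53 targets numbered 3, 4, 0 and 2 without 1 array each, and Cdkn1a was called in all 4 fits.

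**Figure D3:**
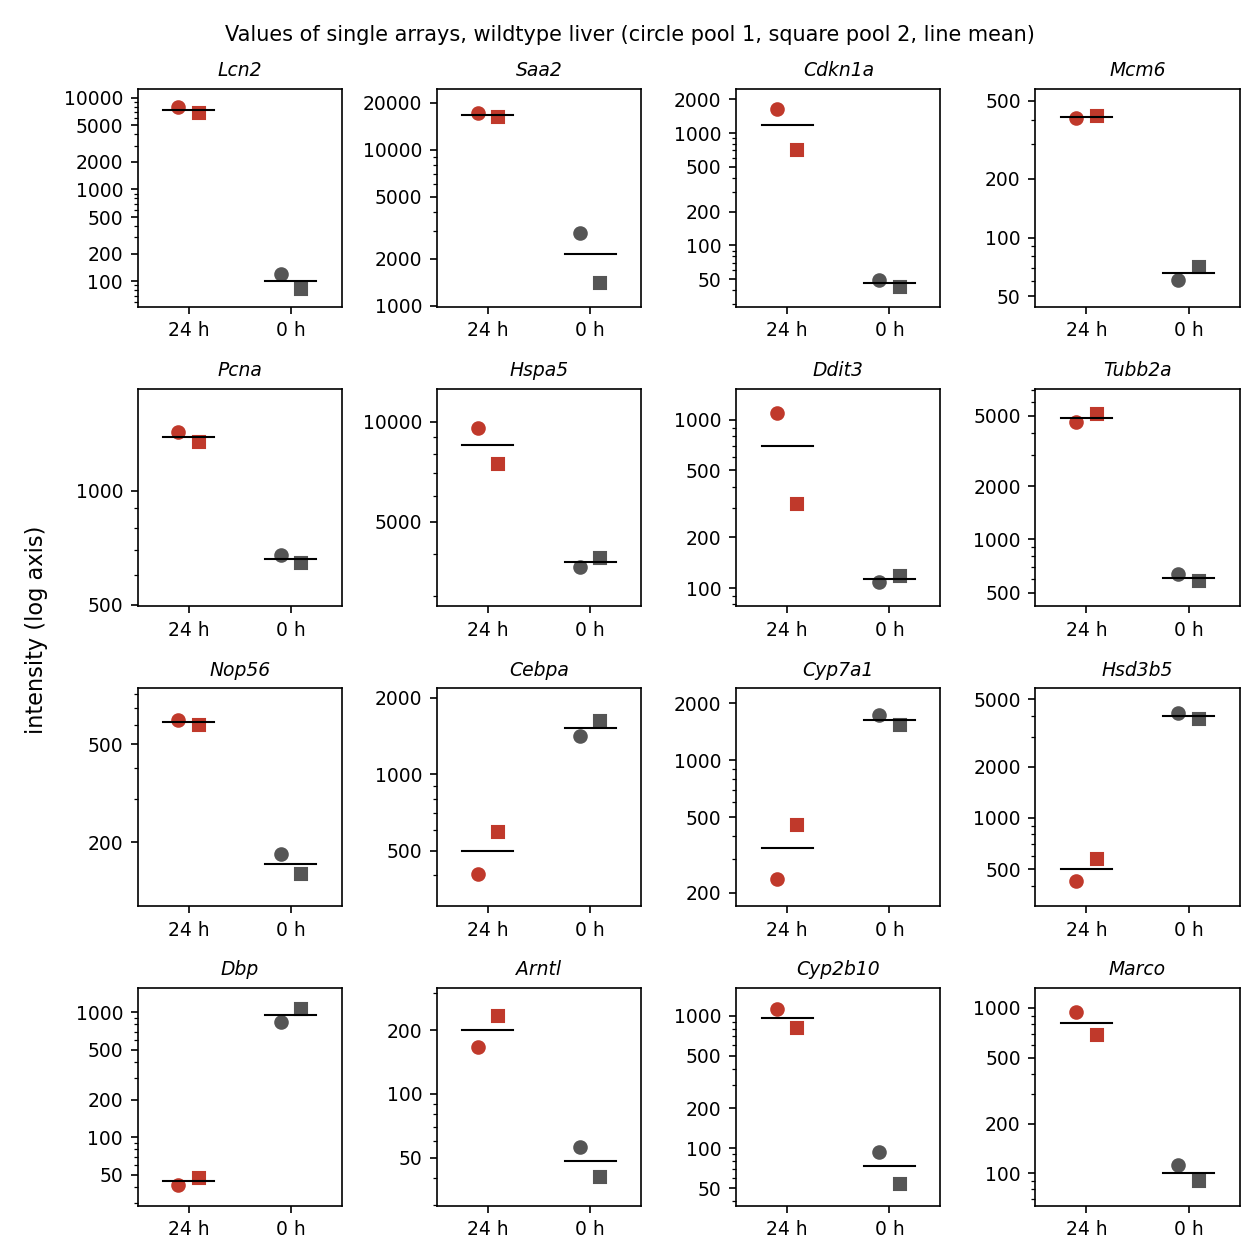
Intensities (y axes, log scale, a panel per gene) on the wildtype arrays at 24 h and 0 h (x axis), with a circle for the pool of replicate 1, a square for that of replicate 2 and a line at their mean, for 16 genes of the acute phase, cell cycle, stress, clock and metabolism. Mcm6 reads 406 and 417 at 24 h, against 60.9 and 70.5 at 0 h.

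Most genes that build ribosomes rose. Of 35 ribosome biogenesis genes 24 rose, 1 fell and 10 were not called, with a median of 0.86. Nop56, a core protein of the box C/D particles that guide methylation of ribosomal RNA, read 627 and 596 at 24 h, against 179 and 148 at 0 h (1.81 ± 0.47, adjusted p = 0.0202), and its partner Nop58 read 1436 and 832 at 24 h, against 419 and 293 at 0 h (1.60 ± 0.43). The helicase Ddx21 (1.52), the methyltransferase Nop2 (1.40), the RNA polymerase I subunit Polr1e (1.23) and the small-subunit factor Bysl (1.31) rose by similar amounts. Npm1, nucleophosmin, read 2809 and 3113 at 24 h, against 1721 and 1644 at 0 h (0.81 ± 0.26). The pools of the 2 times did not overlap for any of these. Nucleolin, Ncl, was the only member that fell, on its only probe set, at 46.9 and 32.7 at 24 h, against 78.7 and 76.2 at 0 h. The methyltransferase Fbl (0.40 ± 0.14) and the pseudouridine synthase Dkc1 (-0.011 ± 0.38) were not called. Rises numbered 7, 11, 5 and 5 in the fits that left out 1 array each.

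Rises also outnumbered falls in translation, protein turnover and nucleotide supply. Of 18 aminoacyl-tRNA synthetases, which charge tRNAs, 13 rose and 1, the mitochondrial Fars2 (-1.10), fell (median 0.56). Wars read 269 and 211 at 24 h, against 94.8 and 85.3 at 0 h (1.27 ± 0.23) and Rars read 1225 and 1082 at 24 h, against 471 and 477 at 0 h (1.25 ± 0.25), and Gars (0.83) and Lars (0.80) also rose. Over all alternatives Wars went down to 0.24, and 1 that kept all arrays did not call it. Of 32 proteasome genes 20 rose and 0 fell, and the means of 32 were higher (median 0.45). Psmd14, the deubiquitinase of the proteasome lid, read 1866 and 2245 at 24 h, against 1165 and 1168 at 0 h (0.80 ± 0.14), and the ATPase Psmc5 read 1376 and 1588 at 24 h, against 921 and 886 at 0 h (0.70 ± 0.14). The rises were small, and the pools did not overlap, as in every called gene. Psme3, of the nuclear activator cap, rose by 0.97, and the assembly chaperone Pomp did not pass (0.14 ± 0.13). Of 25 genes of nucleotide, serine, one-carbon and polyamine synthesis 12 rose and 5 fell (median 0.38). Psat1, the serine synthesis transaminase, was under background at 0 h and read 389 and 211 at 24 h, at least 5.21-fold higher, whereas Phgdh, the first enzyme of the same path, was at least 1.48-fold lower. Ctps, which makes CTP, read 267 and 274 at 24 h, against 56.6 and 51.1 at 0 h (2.04 ± 0.44), Srm, spermidine synthase, read 2080.5 and 1453 at 24 h, against 427 and 478 at 0 h (1.91 ± 0.48) and Cad, which starts pyrimidine synthesis, read 239 and 195 at 24 h, against 64.4 and 63.5 at 0 h (1.54 ± 0.22). Odc1, the entry enzyme of polyamines, rose by 0.77. The folate enzymes Mthfd1 (-0.87) and Shmt1 (-0.83) fell. In the fits that left out 1 array each the rises numbered 7, 5, 4 and 3 for synthetases, 13, 7, 7 and 6 for proteasome genes and 7, 6, 4 and 2 for the nucleotide and serine list.

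Genes of the unfolded protein and integrated stress responses, which expand the folding capacity of the endoplasmic reticulum and restrain translation, had rises and no falls. Of 30 measured genes 17 rose and 13 were not called (median 0.87). Creld2, a secreted factor of stressed endoplasmic reticulum, read 6981 and 3535 at 24 h, against 568 and 786 at 0 h (2.86 ± 0.44, adjusted p = 0.00218). Manf, another such factor, read 6902 and 4749 at 24 h, against 1576 and 1909 at 0 h (1.71 ± 0.24), and Hspa5, the chaperone BiP, read 9596 and 7462 at 24 h, against 3653 and 3905 at 0 h (1.16 ± 0.17, adjusted p = 0.00126). All 24 h pools were above all 0 h pools in these. Sdf2l1 (1.69), Hyou1 (1.14), Dnajb11 (1.13), Pdia4 (1.05), Calr (0.88) and Hsp90b1 (0.72), all of the folding machinery, rose too. Over all alternatives Hyou1 went down to 0.43, and 1 that kept all arrays did not call it. On the integrated stress side Atf4, its central transcription factor, read 2334 and 2003 at 24 h, against 1059 and 896 at 0 h (1.14 ± 0.23), and Ddit3, the death-linked factor CHOP, read 1093 and 314 at 24 h, against 109 and 117 at 0 h (2.23 ± 0.48). Chac1, which breaks down glutathione, read 376 and 634 at 24 h, against 147 and 114 at 0 h (1.80 ± 0.42). The hormone gene Fgf21 was under background at 0 h and read 200.2 and 430.2 at 24 h, at least 5.33-fold higher. Asns (0.53 ± 0.19, adjusted p = 0.0612), Trib3 (0.30 ± 0.20) and Herpud1 (0.022 ± 0.30) were not called.

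The pools of 24 h differed from each other in these genes. Replicate 1 was the brighter in 23 of 30 stress genes, with a median log2 difference between the pools of 0.32, against 45.7% of all genes and a median of -0.020. In replicate 2 Ddit3 read 314 and Creld2 read 3535, both still above 0 h. Dnajb9, an endoplasmic reticulum chaperone, read 3357 and 1187 at 24 h, against 817 and 936 at 0 h, where replicate 2 was close to the 0 h values, and it was not called (adjusted p = 0.0693). Chac1 and Fgf21 ran the other way, with replicate 2 brighter. Replicate 1 was the brighter in 2 of 32 proteasome genes (median -0.19) and in 2 of 19 cholesterol synthesis genes (median -0.56). What set the pools apart was not tested. Rises in the stress list numbered 13, 19, 14 and 11 in the fits that left out 1 array each. By 36 h the list's median over 0 h was 0.17, with Creld2 at 727 and 1014 and Hspa5 at 4525 and 5671.

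**Figure D4:**
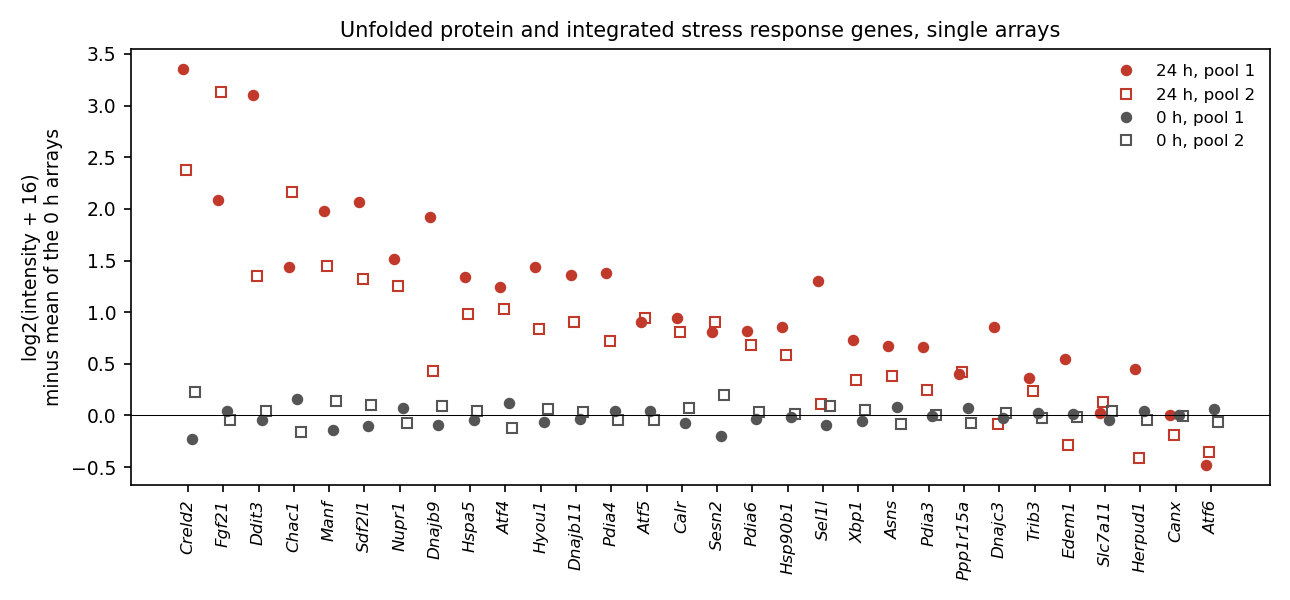
Log2 difference of each wildtype array from the mean of the 0 h arrays (y axis) for the 30 stress response genes (x axis), with circles for replicate 1, squares for replicate 2, red for 24 h and grey for 0 h. At 24 h the circle lies above the square in 23 of 30 genes.

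Promoters of 4 of these genes are given because each rose and holds a full-length stress word. The endoplasmic reticulum stress element was searched as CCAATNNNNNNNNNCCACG and the CEBP-ATF element as TGATGNAA, on both strands of the RefSeq windows (GRCm38.p6). The windows are chr2:34771840-34772139 (plus strand) for Hspa5, chr15:88819396-88819695 (plus) for Creld2, chr7:45615441-45615740 (minus) for Fgf21 and chr2:119350992-119351291 (plus) for Chac1. Each is printed 5′ to 3′ along the gene's strand with the match in capitals.
Hspa5: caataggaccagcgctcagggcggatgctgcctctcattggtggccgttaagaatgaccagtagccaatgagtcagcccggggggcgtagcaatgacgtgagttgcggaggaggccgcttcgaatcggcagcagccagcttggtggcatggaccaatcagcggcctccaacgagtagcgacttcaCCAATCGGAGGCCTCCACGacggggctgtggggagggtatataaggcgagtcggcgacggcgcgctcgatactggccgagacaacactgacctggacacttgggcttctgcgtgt
Creld2: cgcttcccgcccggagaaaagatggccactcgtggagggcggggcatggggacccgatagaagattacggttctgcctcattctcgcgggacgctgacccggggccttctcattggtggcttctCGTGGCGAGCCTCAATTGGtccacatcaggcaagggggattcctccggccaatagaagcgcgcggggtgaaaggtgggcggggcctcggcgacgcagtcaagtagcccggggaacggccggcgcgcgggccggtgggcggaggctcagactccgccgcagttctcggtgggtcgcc
Fgf21: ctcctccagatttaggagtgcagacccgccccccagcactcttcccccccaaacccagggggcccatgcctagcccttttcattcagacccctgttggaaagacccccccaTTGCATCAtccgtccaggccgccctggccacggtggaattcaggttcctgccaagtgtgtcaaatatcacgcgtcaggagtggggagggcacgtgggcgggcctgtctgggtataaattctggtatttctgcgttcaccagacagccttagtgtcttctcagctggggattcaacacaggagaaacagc
Chac1: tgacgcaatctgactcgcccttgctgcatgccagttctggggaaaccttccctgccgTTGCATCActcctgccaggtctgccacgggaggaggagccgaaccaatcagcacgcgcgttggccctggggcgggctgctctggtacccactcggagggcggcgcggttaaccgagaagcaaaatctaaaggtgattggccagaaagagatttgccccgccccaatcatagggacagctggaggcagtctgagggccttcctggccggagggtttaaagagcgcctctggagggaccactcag
The first element begins 65 bases before the start in Hspa5 and, on the opposite strand, 126 bases before it in Creld2. It was found in 7 of 27 stress genes with a promoter (Calr, Hspa5, Hsp90b1, Creld2, Pdia6, Dnajc3 and Canx), in 5 of the 15 that rose and 2 of the 12 that were not called, against 37 of 27025 genes (0.137%). The second begins 139 bases before the start of Fgf21 and 193 before that of Chac1, in both on the opposite strand. It was found in 7 of the 27, in 3 of those that rose and 4 of those not called, against 4.51% of all genes. Among the synthetases it was in 4 of 12 with a promoter, Gars, Iars, Yars and Aars, all of which rose. Other words were searched as well. CACGTG was in 7 of 30 ribosome biogenesis genes, in 3 of the 20 that rose and 4 of the 9 not called. It was in 5 of 15 clock genes, against 8.09% of all genes. In clock genes TTATGNAA was in 3 of 15 (0 of the 4 that rose), against 3.99% of all genes. AGGTCA was in 5 of 15 clock genes (3 of the 4), against 18.1% of all genes. TTCNNNGAA was in 7 of 24 acute-phase genes, in 5 of the 15 that rose and 2 of the 8 not called, against 9.55% of all genes.

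The cytoskeleton list had the highest median of the pathway lists. Of 27 measured genes 21 rose and 0 fell, with a median of 1.09. Tubb2a, a beta-tubulin, read 4589.8 and 5118 at 24 h, against 633 and 581 at 0 h (2.96 ± 0.22, adjusted p = 3.5e-05), and Tubb6 (2.35), Tubb5 (2.01) and Tubb4b (1.51) rose with it. The sizes depended on the processing: over all alternatives the lowest were 1.27 for Tubb2a, 1.03 for Tubb6, 0.95 for Tubb5 and 1.30 for Tubb4b. Actg1, cytoplasmic gamma-actin, read 9693 and 6910.0 at 24 h, against 2397 and 2222 at 0 h (1.82 ± 0.44). The keratins of hepatocytes, Krt8 at 4868 and 6876 at 24 h, against 2269 and 2087 at 0 h (1.40 ± 0.38) and Krt18 (1.48), rose, as did the tropomyosin Tpm4 (1.51) and the calcium-binding S100a10 (1.66). No 24 h pool reached down into the 0 h range for these genes. Actb, beta-actin, often taken as a constant, read 11648 and 10972 at 24 h, against 8359.9 and 8433 at 0 h (0.43 ± 0.071). Vimentin, a filament of non-epithelial cells, was not called (0.42 ± 0.15, adjusted p = 0.0519). Rises numbered 19, 17, 17 and 16 in the fits that left out 1 array each, and 15 when probe sets marked for cross-hybridization were left out.

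Immediate-early genes, which respond within minutes to hours, were called at about the share of all genes, with more rises than falls. Of 23 measured 5 rose and 1 fell (median 0.45), where 10.3% of all genes rose and 15.7% fell. The means of 20 were higher, as were those of 6723 of all 17097 genes. Atf3 was under background at 0 h and at least 2.59-fold higher at 24 h, Fos read 404 and 183 at 24 h, against 77.6 and 80.8 at 0 h (1.60 ± 0.43), and the ERK phosphatase Dusp6 rose by 1.13. Dusp1, another such phosphatase, fell (-1.02). Myc read 238 and 198 at 24 h, against 146 and 140.5 at 0 h (0.55 ± 0.51, adjusted p = 0.458) and Jun read 616 and 566 at 24 h, against 389 and 296 at 0 h (0.77 ± 0.46, adjusted p = 0.24). Neither passed. In both the 24 h pools lay above the 0 h pools, and the pools of the 2 times were apart in 70.7% of all genes. The list's rises numbered 3, 4, 3 and 3 without 1 array each.

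Mitogens, cytokines and their receptors were called at about the share of all genes. Of 45 measured 6 rose and 6 fell (median 0.0011). Among ligands, Hgf read 50 and 46.2 at 24 h, against 41.1 and 43.2 at 0 h (0.14 ± 0.12) and Tgfa read 254 and 287 at 24 h, against 220.0 and 214 at 0 h (0.30 ± 0.24), and Il6 and Tnf lay under background on the 4 arrays. Gas6, the ligand of Axl and Mertk, rose by 1.58, with 1 of its probe sets opposed, and Vegfa fell (-0.74). Il1r1, the interleukin 1 receptor, had the largest rise, at 2555 and 1099 at 24 h, against 363 and 228 at 0 h (2.48 ± 0.47, adjusted p = 0.00544), with replicate 1 the brighter at both times. Tnfrsf1a, the main TNF receptor, read 1312 and 1201 at 24 h, against 544 and 580.4 at 0 h (1.14 ± 0.17). For interleukin 6 the shared chain Il6st rose (931 and 888 at 24 h, against 513 and 541 at 0 h, 0.77 ± 0.11) and the specific chain Il6ra fell (494 and 531 at 24 h, against 949 and 655 at 0 h, -0.61 ± 0.19). Egfr read 1144 and 1099 at 24 h, against 2483 and 2245 at 0 h (-1.06 ± 0.32, adjusted p = 0.0354), and Erbb3 (-1.01) and Klb (-1.35), the co-receptor for FGF21, fell as well. The HGF receptor gene Met read 551 and 654 at 24 h, against 875 and 864 at 0 h and just missed the threshold (-0.52 ± 0.18, adjusted p = 0.0542). Its adjusted p was 0.00908 with limma on the 4 compared arrays alone. Without 1 array each the counts were 6, 6, 5 and 5 rises and 2, 5, 2 and 3 falls.

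Growth hormone signalling genes had more falls than rises. Of 21 genes of the growth hormone, IGF and SOCS axis 6 fell, 2 rose and 13 were not called (median -0.43). The receptor gene Ghr read 2134 and 2472 at 24 h, against 4366 and 4427 at 0 h (-0.93 ± 0.18), Igfals, which stabilises IGF1 in plasma, read 247 and 269 at 24 h, against 622 and 604 at 0 h (-1.20 ± 0.20), and Stat5b, which carries the signal to the nucleus, read 146 and 172 at 24 h, against 256 and 242 at 0 h (-0.60 ± 0.16). The pools of the times were apart in all 3. Onecut1, a hepatocyte transcription factor, read 279 and 260.4 at 24 h, against 1184 and 906 at 0 h (-1.88 ± 0.38). Igf1 read 7101 and 7363 at 24 h, against 6955 and 6995 at 0 h (0.052 ± 0.081, adjusted p = 0.674) and its values lay close together across times. Igfbp1, an IGF-binding protein of regenerating and fasting liver, rose to 4664 and 4572, against 1024 and 1224 at 0 h (2.03 ± 0.38), and Stat3 rose by 0.64. The feedback inhibitors Socs2 (306 and 116 at 24 h, against 546 and 261 at 0 h, -0.93 ± 0.40), Cish (148 and 139 at 24 h, against 416 and 217 at 0 h) and Socs3 (-0.38 ± 0.33) were not called, and the Socs2 pools of 24 and 0 h overlapped. The list's falls numbered 5, 4, 2 and 3 without 1 array each.

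Genes with a male bias in mouse liver, many of them driven by the pulses of growth hormone in males, had the lowest median of the pathway lists. Of 19 measured 12 fell and 0 rose (median -0.80), and the falls numbered 9, 9, 9 and 7 in the fits that left out 1 array each. Beside Hsd3b5, the carboxylesterase Ces1e read 251 and 239.8 at 24 h, against 1076 and 1011 at 0 h (-2.02 ± 0.25), the organic anion transporter Slco1a1 read 731 and 754 at 24 h, against 2382 and 2529 at 0 h (-1.70 ± 0.28) and Selenbp2, a selenium-binding protein, read 4115 and 4030.1 at 24 h, against 9589 and 9152 at 0 h (-1.20 ± 0.09, adjusted p = 2.89e-05). No pools overlapped among these. Elovl3, a fatty acid elongase (0.12 ± 0.47), and Mup3, a major urinary protein (-0.16 ± 0.08), were not called. Of 15 female-biased genes 6 fell (4, 4, 3 and 2 without 1 array each) and 1, Cyp2b10, rose (median -0.35), with 5 under background throughout.

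Lipid genes did not move as a block. In fatty acid and triglyceride synthesis 6 of 18 genes fell and 2 rose (median -0.27). Thrsp, a lipogenic regulator, read 1125 and 1262 at 24 h, against 5142 and 5511 at 0 h (-2.14 ± 0.48), the elongase Elovl6 read 271 and 261 at 24 h, against 702 and 888 at 0 h (-1.51 ± 0.24) and Mlxipl, which encodes the carbohydrate-response factor ChREBP, read 412 and 484 at 24 h, against 1039 and 1183 at 0 h (-1.28 ± 0.23). Fatty acid synthase, Fasn (-0.028 ± 0.22), and acetyl-CoA carboxylase, Acaca (0.019 ± 0.32), were not called. In cholesterol synthesis 6 of 19 fell and 0 rose (median -0.39). Insig1, a brake on sterol synthesis that is itself sterol-regulated, read 749 and 1113 at 24 h, against 2644 and 2487 at 0 h (-1.47 ± 0.26), the desaturase Sc5d read 1194 and 1625 at 24 h, against 3637 and 3769 at 0 h (-1.40 ± 0.20) and Lss, lanosterol synthase, fell (-0.70). Both 24 h pools lay below both 0 h pools in each of these called genes. Lipid droplet coats rose: Plin2 read 12069 and 11159.6 at 24 h, against 3979.7 and 3539 at 0 h (1.62 ± 0.20), and Plin4 (1.53) and Plin5 (1.67) rose by like amounts. They were 3 of the 4 rises among 22 genes of lipid storage and uptake, of which 4 fell. The other was Fabp4, a fatty acid carrier of adipocytes and macrophages, at 1678 and 1029 at 24 h, against 373 and 318 at 0 h, where 1 of its 3 probe sets was lower past the threshold (-0.58, adjusted p = 0.0381 among all probe sets). Without 1 array each the falls numbered 5, 5, 4 and 5 in fatty acid synthesis, 4, 6, 4 and 4 in cholesterol synthesis and 0, 2, 0 and 0 in lipid storage.

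Fatty acid oxidation was split evenly. Of 21 genes 5 rose and 5 fell (median -0.096). Cyp4a10, an omega-hydroxylase, read 5378 and 5365 at 24 h, against 1563 and 1349.5 at 0 h (1.88 ± 0.14), Angptl4, an inhibitor of lipoprotein lipase, read 2035 and 1915 at 24 h, against 754 and 686 at 0 h (1.44 ± 0.27), and Acot1 (1.26) and Ehhadh (0.85), both known as PPARA targets, rose. The other, dim probe set of Angptl4 stood at -0.12. Ppara itself read 650.4 and 843 at 24 h, against 1369.6 and 1439.5 at 0 h (-0.91 ± 0.15), and Cpt1a, the gate of mitochondrial import (-0.56 ± 0.13), and Fabp1, the liver fatty acid carrier (-0.48 ± 0.091), fell. Pools of the 2 times did not overlap in these called genes. The counts without 1 array each were 3, 4, 4 and 2 rises and 3, 3, 1 and 2 falls.

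In glucose metabolism 6 of 28 genes rose and 3 fell (median 0.072). The rises were on the glycolytic and pentose side: Aldoa, a muscle-type aldolase, read 1799.6 and 2066 at 24 h, against 881 and 778 at 0 h (1.20 ± 0.19), Pgd, of the pentose phosphate path, read 779 and 811 at 24 h, against 357 and 373 at 0 h (1.09 ± 0.27), and Pkm (0.74), Ldha (0.60), Gapdh (0.40) and Pgk1 (0.37) rose less. The falls were genes of liver glucose handling. Gys2, liver glycogen synthase, read 583 and 513 at 24 h, against 1492 and 1554 at 0 h (-1.45 ± 0.24), Pygl, liver phosphorylase, read 1420.2 and 1589.9 at 24 h, against 3449.9 and 3396 at 0 h (-1.18 ± 0.25) and Slc2a2, the glucose transporter of hepatocytes, read 1351 and 1325 at 24 h, against 3144 and 3201 at 0 h (-1.24 ± 0.24). The gluconeogenic gene G6pc was not called (2067 and 2328 at 24 h, against 1404 and 2723 at 0 h, 0.16 ± 0.50). The counts without 1 array each were 4, 4, 4 and 4 rises and 2, 3, 2 and 2 falls.

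Falls outnumbered rises in nitrogen metabolism. Of 32 urea cycle and amino acid breakdown genes 13 fell, 3 rose and 16 were not called (median -0.48). Csad, of taurine synthesis, read 345 and 377 at 24 h, against 1649 and 2241 at 0 h (-2.36 ± 0.32). Of the histidine path, Hal stood at 605 and 968 at 24 h, against 2282 and 2278 at 0 h (-1.55 ± 0.39), Amdhd1 (-1.67), Uroc1 (-1.05) and Ftcd (-0.58). Agxt, which removes glyoxylate, read 958 and 1076 at 24 h, against 2503 and 2336 at 0 h (-1.24 ± 0.13), and Otc, of the urea cycle, read 3253 and 2904 at 24 h, against 5865 and 5830.1 at 0 h (-0.92 ± 0.15). Both 24 h pools were below both 0 h pools in each. The urea cycle was not uniform: Asl (0.61) and the ornithine carrier Slc25a15 (0.70) rose, and Cps1 (-0.08 ± 0.15), Ass1 (-0.38 ± 0.17) and Arg1 (0.20 ± 0.099) were not called. Mat1a, which makes S-adenosylmethionine, rose (0.74). Fits that left out 1 array each gave 7, 13, 7 and 7 falls.

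Bile acid genes had no rises. Of 16 genes of bile acid synthesis 7 fell (median -0.42). Cyp7a1, the rate-limiting enzyme, read 235 and 455 at 24 h, against 1738 and 1531 at 0 h (-2.26 ± 0.73, adjusted p = 0.0455), Akr1d1, the steroid reductase of the pathway, read 285 and 398 at 24 h, against 1302 and 1293 at 0 h (-1.90 ± 0.24, adjusted p = 0.000701) and Cyp27a1, of the alternative path, read 2439 and 2600.3 at 24 h, against 4379 and 4684 at 0 h (-0.84 ± 0.13). The Cyp7a1 pools were wide apart at 24 h and wider at 36 h (351 and 53.7). Cyp8b1 read 1659 and 2146 at 24 h, against 3445 and 3681 at 0 h without passing (adjusted p = 0.402). Its adjusted p was 0.00162 with limma on the 4 compared arrays alone. Of 17 transporters of bile acids and sterols 7 fell and 0 rose (median -0.32). Abcg8, of the sterol exporter, read 88.6 and 124 at 24 h, against 412 and 406 at 0 h (-1.81 ± 0.17, adjusted p = 0.000111), and its partner Abcg5 fell with it (-1.40). The canalicular bile salt pump Abcb11 read 680.3 and 994 at 24 h, against 2100.1 and 2004 at 0 h (-1.30 ± 0.31), the sinusoidal uptake carrier Slc10a1 read 2928 and 2755 at 24 h, against 5740.3 and 5536 at 0 h (-0.99 ± 0.26) and Slco1b2 read 2705 and 1460.2 at 24 h, against 5709 and 5556 at 0 h (-1.49 ± 0.40). The pools were apart in all of these. The basolateral exporters Abcc3 (-0.20 ± 0.16) and Abcc4 (-0.083 ± 0.13) were not called. In the fits that left out 1 array each the falls numbered 2, 4, 2 and 2 in synthesis and 4, 6, 4 and 3 in transport.

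In drug metabolism falls outnumbered rises. Of 30 cytochrome P450 genes of families 1 to 3 17 fell and 1 rose (median -0.44), and the falls numbered 8, 5, 4 and 5 in the fits that left out 1 array each. Cyp1a2, which oxidises caffeine, read 3295 and 3028 at 24 h, against 5873 and 6457 at 0 h (-0.96 ± 0.20), the epoxygenase Cyp2j5 fell, and Cyp2f2, of periportal hepatocytes, read 6339 and 6979.9 at 24 h, against 10738 and 10900.4 at 0 h (-0.70 ± 0.13). Cyp2b10, the classic target of the receptor CAR, was the exception at 1119 and 806 at 24 h, against 94.2 and 53.6 at 0 h (3.46 ± 0.52, adjusted p = 0.002). Cyp3a11, a major drug-oxidising form, was not called (10537 and 11225 at 24 h, against 12217 and 12485 at 0 h, -0.18 ± 0.073). Many members are close paralogs whose probes may share signal. Of 32 conjugation enzymes 14 fell and 4 rose (median -0.49). The sulfotransferase Sult1b1 read 129 and 170.2 at 24 h, against 427 and 416 at 0 h (-1.41 ± 0.23) and the glucuronosyltransferase Ugt2b1 fell (-0.95), whereas Nnmt, which methylates nicotinamide, read 6862 and 7434 at 24 h, against 2315 and 2814 at 0 h (1.48 ± 0.26) and Sult1a1 read 6682 and 7805 at 24 h, against 4069.6 and 3794 at 0 h (0.88 ± 0.13). Falls among conjugation enzymes numbered 9, 10, 9 and 7 in the same fits.

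Transcription factors that define hepatocytes were called at about the share of all genes. Of 20 measured 4 fell and 1, Creb3l3 (0.64), rose (median -0.15). Cebpa, which restrains proliferation in hepatocytes, read 405 and 593 at 24 h, against 1415 and 1627 at 0 h (-1.60 ± 0.21, adjusted p = 0.000896), and Onecut1 fell as well. Both had 24 h pools far below 0 h. Hnf4a read 3216 and 2691 at 24 h, against 3348 and 3453 at 0 h (-0.21 ± 0.12, adjusted p = 0.213) and Cebpb read 2257 and 2399 at 24 h, against 2271 and 1978 at 0 h (0.13 ± 0.11). Of 23 nuclear receptors 4 fell and none rose, at about the share of all genes: Ppara, Nr1h4, the bile acid receptor FXR (-0.55), Nr3c1, the glucocorticoid receptor (-0.81), and Nr2f2 (-0.90). Of 12 fetal and oncofetal genes 4 fell and 1, Ly6d, rose, and Afp, alpha-fetoprotein, was not called (50.6 and 65.6 at 24 h, against 31.3 and 30.6 at 0 h). The adjusted p of Afp was 0.00493 with limma on the 4 compared arrays alone. Falls without 1 array each numbered 5, 3, 2 and 3 among hepatocyte factors and 2, 4, 2 and 2 among nuclear receptors.

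Clock genes were displaced in opposite directions. The loop works by Clock and Arntl driving Per, Cry, Rev-erb and Dbp genes, some of which then repress them. Of 18 measured 4 rose and 5 fell (median -0.099). On the driving side Arntl read 167 and 232 at 24 h, against 56.3 and 40.5 at 0 h (1.74 ± 0.27) and Clock read 504 and 515 at 24 h, against 222 and 231 at 0 h (1.12 ± 0.19), and Nfil3, a repressor opposed to Dbp, rose by 1.14. The other probe set of Arntl, dimmer, stood at -0.044. Cry1, which peaks apart from the other repressors, read 240.2 and 193 at 24 h, against 52 and 51.6 at 0 h (1.77 ± 0.13). On the output side Dbp, its relatives Tef (237 and 326 at 24 h, against 710.3 and 884 at 0 h, -1.46 ± 0.20) and Hlf (-0.80), the Rev-erb gene Nr1d2 (164 and 395 at 24 h, against 981 and 967 at 0 h, -1.86 ± 0.28) and Per3 (34 and 50.2 at 24 h, against 136 and 151 at 0 h, -1.47 ± 0.17) fell. No pools overlapped in these 9 genes. Per1 (0.49 ± 0.37) and Per2 (0.34 ± 0.28) were not called. The hour of harvest and the operation cannot be told apart in this pattern. The counts without 1 array each were 3, 4, 4 and 3 rises and 6, 4, 4 and 4 falls.

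Interferon-linked genes and genes of antigen presentation had falls and no rises. Of 25 measured 10 fell and 0 rose (median -0.39). Cxcl9, a chemokine induced by interferon gamma, read 57.1 and 48.8 at 24 h, against 319.9 and 194 at 0 h (-1.95 ± 0.24), and the class II genes H2-Aa (319 and 183 at 24 h, against 961 and 546 at 0 h, -1.52 ± 0.29) and H2-Ab1 (-1.19) and their chaperone Cd74 (229.6 and 121 at 24 h, against 398 and 275 at 0 h, -0.92 ± 0.26) fell. The 0 h pools differed in H2-Aa, but neither came down to the 24 h range. Limma on the 4 compared arrays alone did not call H2-Ab1 (adjusted p = 0.0705) or Cd74 (adjusted p = 0.0652). Ifit1 (-0.88), Ifit3 (-0.97) and Irf7 (-0.76), of the type I response, fell, and the class I gene H2-K1 was not called (-0.18 ± 0.09). Fits that left out 1 array each gave 7, 7, 5 and 6 falls.

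Falls were called at both ends of the liver lobule. Of 17 pericentral genes, expressed around the central vein, 9 fell and 0 rose (median -0.45). Beside Cyp7a1 and Cyp1a2 these included Gulo, of vitamin C synthesis (-0.90), Rhbg, an ammonia carrier (-0.81), and Rgn (-0.55). Of 18 periportal genes 6 fell and 2 rose (median -0.20). Uox, urate oxidase, read 2454 and 3006 at 24 h, against 9098 and 9122 at 0 h (-1.74 ± 0.31), Hsd17b6 fell (-1.46), and Etnppl was at least 2.86-fold lower. Whether the lists differ was not tested. They numbered 5, 4, 3 and 1 among pericentral genes and 3, 4, 4 and 3 among periportal genes without 1 array each.

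Markers of other cell types were read as well, and the cell makeup of the liver was not measured. Macrophage markers went both ways: of 12 measured 2 rose and 3 fell. Marco, a scavenger receptor, read 941 and 685 at 24 h, against 112 and 89.8 at 0 h (2.82 ± 0.28, adjusted p = 0.000224), and Cd68 rose (0.98 ± 0.15), while the Kupffer cell lectin Clec4f (428 and 447 at 24 h, against 689.7 and 713 at 0 h, -0.66 ± 0.13), Csf1r (-0.58) and Mpeg1 (-0.58) fell. The summed intensity of the list was 7143 and 6927 at 24 h and 7214 and 6515 at 0 h. Of 9 monocyte and neutrophil markers none was called, with S100a8 at 139 and 81.1 at 24 h, against 33.2 and 23 at 0 h (1.49 ± 0.61) and S100a9 at 186 and 117 at 24 h, against 66.2 and 47.4 at 0 h (1.18 ± 0.65), and the list summed to 685 and 538 at 24 h and 507 and 455 at 0 h. Limma on the 4 compared arrays alone called S100a8 (adjusted p = 0.00495) and S100a9 (adjusted p = 0.0071) higher, and 2 of the 9 lower. In Socs2-null liver 2 of the 9 rose and 2 fell. The neutrophil granule gene Ltf lay under background on all 4 arrays. Lcn2 and Cd14 are also expressed by such cells, and their part in the rise of the acute-phase genes was not tested. Of 8 lymphocyte markers 2 fell, both of B cells, Cd79a (-0.39) and the dim Cd79b (-0.36). Of 10 sinusoidal endothelial markers 3 fell, among them Dnase1l3 (-0.83). Of 11 stellate cell markers 2 rose, Acta2 (291 and 291 at 24 h, against 117 and 124 at 0 h, 1.17 ± 0.14) and Timp1, at least 1.6-fold higher, and 3 fell, Lrat (-0.96), Col3a1 (-0.86) and Reln (-0.59). The other, dim probe set of Acta2 stood at -0.28, and over all alternatives Col3a1 was -0.097 at its weakest. Without 1 array each the calls were 2, 2, 2 and 2 rises and 2, 2, 2 and 2 falls among macrophage markers, 3, 0, 0 and 0 falls among lymphocyte, 0, 2, 0 and 0 among endothelial and 0, 0, 1 and 0 among stellate cell markers.

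Erythroid genes were lower at 24 h. Of 4 measured 3 fell, Alas2, of haem synthesis (491 and 551 at 24 h, against 1199 and 1252 at 0 h, -1.21 ± 0.19), alpha-globin Hba-a1 (2859.9 and 3591 at 24 h, against 6917 and 6856 at 0 h, -1.10 ± 0.19) and Klf1 (-0.97), and the list summed to 3454 and 4226 at 24 h and 8294 and 8303 at 0 h. Of 7 cholangiocyte, 4 platelet, 3 adipocyte and 4 mesothelial markers none was called. Among 5 exocrine pancreas markers 2 fell, Cela1 (318 and 383 at 24 h, against 936 and 1033 at 0 h, -1.45 ± 0.17) and the dim Amy2a5, and among 4 muscle markers Acta1 rose (0.42). The erythroid falls numbered 3, 3, 3 and 3 without 1 array each, and those of pancreas markers 1, 1, 1 and 1.

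The same interval in Socs2-null liver, on arrays that share no sample with these, moved the same way. In Socs2-null liver the receptor feedback gene Socs2 read 26.6 and 29.5 at 24 h, against 26.4 and 27.6 at 0 h, on its brightest probe set, all under background. There 1857 genes rose (10.9%) and 2319 fell (13.6%). The contrasts of both genotypes came from the same fit and used the same estimate of each gene's spread. The overlap of their calls is therefore not independent. Of the 1767 genes that rose in wildtype liver 1758 also had a higher mean at 24 h in Socs2-null liver (99.5%), and 1283 rose there, 72.6% of the wildtype rises and 69.1% of the Socs2-null ones. Of the 2686 that fell 2617 also had a lower mean (97.4%), and 1633 fell, 60.8% of the wildtype falls and 70.4% of the Socs2-null ones. Ccser2 was the 1 gene called in opposite directions, at 434 and 451 at 24 h and 333 and 340.3 at 0 h in Socs2-null liver (0.38, adjusted p = 0.04997) and 258 and 274 at 24 h, against 376 and 349 at 0 h in wildtype liver (-0.42 ± 0.13, adjusted p = 0.0308, and 0.055 in wildtype liver over the mean of its probe sets). Its genotype difference of 0.80 was not called (adjusted p = 0.9999). Lcn2 read 8421 and 8528 at 24 h and 206 and 100.3 at 0 h in Socs2-null liver (log2 difference 5.72), Cdkn1a read 1443 and 1828 and 43.5 and 45.8 (4.76), Mcm6 differed by 2.47 and Dbp by -4.42. Median log2 differences in Socs2-null liver, beside those of wildtype liver, were 0.81 beside 0.86 for ribosome biogenesis, 0.81 beside 0.87 for the stress list, 0.67 beside 0.70 for the acute phase and -0.98 beside -0.80 for male-biased genes.

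**Figure D5:**
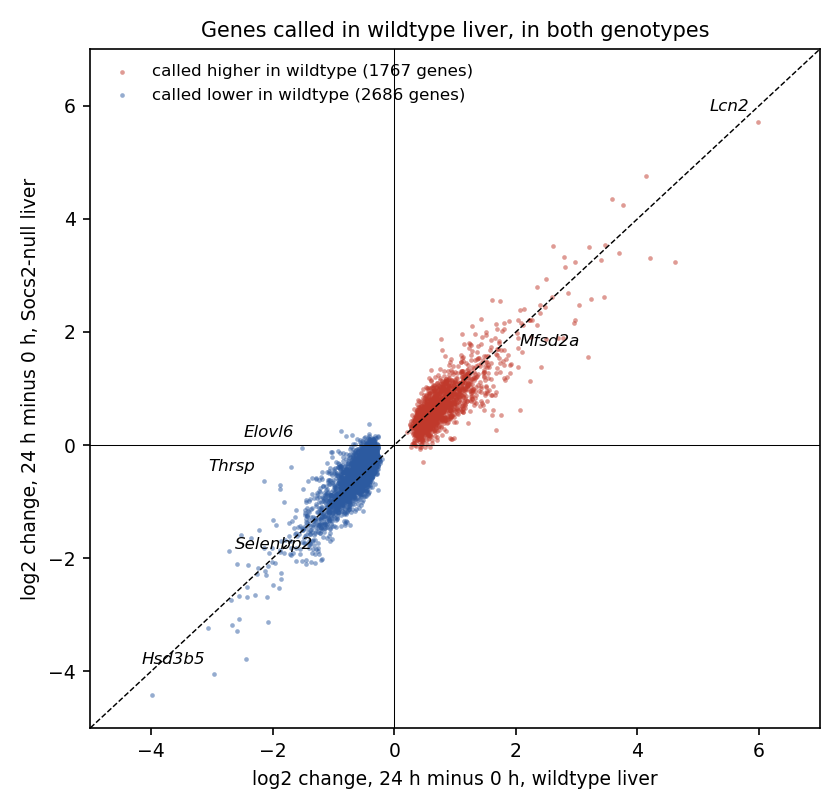
Log2 difference between 24 h and 0 h in Socs2-null liver (y axis) against that in wildtype liver (x axis) for the genes called in wildtype liver, coloured by direction. Of the called rises 99.5% and of the called falls 97.4% have the same sign on both axes, against 75.3% of the genes not called in wildtype liver, which are not drawn. Lcn2 reads 5.72 and 5.98.

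The difference between the genotypes in the 24 h response was itself tested and called no gene (0%) with limma, while 654 genes had an unadjusted p under 0.05. The smallest p belonged to Selenbp2, whose log2 difference was -2.02 in Socs2-null liver and -1.20 in wildtype liver, -0.83 apart (unadjusted p = 3.89e-05, adjusted p = 0.665). Next came Ccdc102a (-0.79), Ttc14 (0.80), 1810008I18Rik (0.84) and Zbtb16 (1.12). A stress gene with a low p was Atf3, at 35.9 and 68.6 and 33 and 46.2 at 24 and 0 h in Socs2-null liver, which differed by -1.40 from the wildtype response (unadjusted p = 0.00753), chosen after its values were seen. Leaving out Socs2-null 0 h replicate 1 gave 12 calls, Socs2-null 24 h replicate 1 gave 6 and wildtype 24 h replicate 1 gave 2.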

How the data were processed

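RNA from whole liver was hybridized to 12 mouse expression arrays, 2 per genotype and time, each a pool of 3 animals, per the labels. The authors deposited 1 processed intensity per probe set and array on a linear scale. How they corrected background, summarized probes and normalized arrays is not given in the sources used here, and intensities were used as deposited.

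Of 45141 probe sets, 28898 named 1 gene in the platform annotation, 551 several and 15588 none, and 104 were controls. Symbols were matched to RefSeq for 28689 of the 28898, and 0 symbols needed updating. The 17097 genes were each represented by the probe set with the highest mean over the 12 arrays, and 7180 had several. Intensities were taken as log2(intensity + 16) and fitted with limma 3.58.1 (statmod 1.5.0, R 4.3.3) as 6 group means with 6 residual degrees of freedom, using a trend and robust moderation. Contrasts were 24 h minus 0 h in each genotype and the difference between them, with p-values adjusted by Benjamini-Hochberg across the 17097 genes and called under 0.05. The fit was tested on simulated data. Figures and counts were made with Python 3.11.15 and matplotlib 3.10.9. A bound on a fold sets the brighter group's mean against the brightest tag control or the dim probe set's own value.

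The comparison, its members and all 49 gene lists were chosen with earlier results of these data known. Genes named are the 15 largest rises and 15 largest falls among called genes with separate pools that were not dim on all 4 arrays, up to 6 members of each list with the smallest p, its regulators, ligands and receptors whether called or not, and the 5 smallest p of the genotype difference. Some of these are left out for length, and others were named after their values were seen. Alternatives covered normalization, centring, the added constant, filters on dim genes, the choice of probe set, moderation, the replicate number, the arrays in the fit, and leaving out each array. The number of arrays limits the precision.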

Additional observations from a re-analysis of the deposited data

Results flagged for a closer look

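Probe sets that name no single gene in the platform annotation were outside the gene comparison but carried signal that differed between 24 h and 0 h in wildtype liver. Of 15588 that name no gene, 644 were called higher and 1748 lower by limma over all probe sets. Among the 5706 of them above the tag controls on all 4 arrays, 513 were higher and 831 lower. Of 551 that name several genes, 53 were higher and 44 lower. A probe set with no gene name read 11829 and 10580.5 at 24 h, against 737 and 391 at 0 h, a log2 difference of 4.34 (adjusted p = 0.00241 with limma). Another stood at 109 and 158 at 24 h, against 2465 and 3067 at 0 h (-4.23). What these probe sets measure was not analysed here. With 2 arrays per group, no test for single outlying arrays applied.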

How the results depend on the processing

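Counts of wildtype rises (1767) ranged from 1312 to 2545 under alternatives that kept all arrays of the compared groups, and falls (2686) from 1510 to 3489, apart from the fit of all 28898 probe sets, which counted 2448 and 4020 probe sets. The falls numbered 1608 with arrays centred on their medians and 1510 with the dimmest 50% of genes dropped, where fewer genes were tested. In Socs2-null liver rises (1857) numbered 1210 and falls (2319) numbered 1252 with only the compared arrays fitted, and falls numbered 1425 with the dimmest 50% dropped. The cause of the changes with centring and with the arrays fitted was not tested. Leaving out each array gave 540 to 1988 wildtype rises, 834 to 2981 wildtype falls, 793 to 1965 Socs2-null rises, 1221 to 2393 Socs2-null falls and 0 to 12 calls of the genotype difference. In those fits a lone array is assumed to vary like the other groups. For Socs2-null liver, rises numbered 1036 without 0 h replicate 1, 793 without 0 h replicate 2 and 1126 without 24 h replicate 2, and falls 1221 and 1249 without 0 h replicates 1 and 2. The genotype difference called 0 genes under every alternative that kept all arrays. With the replicate number as a block, the replicate block gave 1642 and 2480 wildtype calls, 1732 and 2188 Socs2-null calls and 0 of the genotype difference. Deviations of same-numbered arrays correlated between -0.5004 and 0.347 (0.035 for wildtype 24 and 0 h), so the numbers were not taken as pairs. A covariate from the hybridization controls, chosen after seeing the data, gave 1932 and 2541.

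With probe sets marked for cross-hybridization left out, the log2 differences of Acta2 (-0.28), Angptl4 (-0.12), Arntl (-0.044), Cdk7 (-0.28), Cenpa (0.067), Fabp4 (-0.58), Il1rn (0.14), Skp2 (-0.27) and Tyms (-0.62) had the opposite sign, as they then rested on other probe sets, and Ccser2 (0.055) did so over the mean of its probe sets. Of 262 named genes called in wildtype liver, 127 were called in the same direction under every alternative and 128 missed the threshold when 1 wildtype array of 24 h or 0 h was left out. With only the 4 compared arrays fitted 259 of the 262 were called, and Ddit3, H2-Ab1 and Cd74 were not. Named genes not called in the main fit passed there too, among them Ccnd1, Cdk1, Myc and Jun. The median of the lists of mitosis, p53 targets, mitogens, lipid storage, glucose metabolism, hepatocyte transcription factors, nuclear receptors, monocytes and neutrophils, lymphocytes, endothelium, platelets and muscle changed sign under at least 1 alternative. Signal over background limits the rest: 3881 genes lay under background on all 4 arrays.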
